A study of Mus musculus with 8 samples.

Results

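Capillary-venous endothelial cells of the mouse hippocampus were selected on measured UMI counts from single-cell RNA sequencing libraries. A UMI (unique molecular identifier) tags a transcript molecule. Of 5258 cells in the deposited table, 1342 were endothelial and 993 of those were capillary-venous. A cell was endothelial when no more than 20% of its UMIs were mitochondrial, at least 0.7% came from 9 endothelial genes (Cldn5, Flt1, Pecam1, Ly6c1, Itm2a, Slco1a4, Cdh5, Slc2a1 and Abcb1a), and pericyte and smooth-muscle genes stayed under 0.4% and 0.25%. It was capillary-venous when Slc38a5, Hmcn1 and Car4 together had more UMIs than Alpl, Cytl1, Sema3g and Bmx together. The opposite order gave 275 arterial-type cells, and 74 endothelial cells with equal sums were left out. The genes of these sums chose the cells, so their levels, and every difference between the capillary-venous and the arterial-type cells, are given as description without a test.

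The cells came from 8 mice aged 5 months, all non-agouti (a/a) wildtype offspring of a/a dams and a/a sires. The dams of 4 mice (2 females and 2 males; Pb F1, Pb F2, Pb M1 and Pb M2) drank water containing 32 ppm lead acetate from 2 weeks before mating through gestation and lactation. The dams of the other 4 (2 females and 2 males; control F1, F2, M1 and M2) drank control water, and all offspring had lead-free water after weaning. The exposure was therefore maternal and had ended months before the tissue was taken. Mice were perfused with saline, and the hippocampus was dissociated enzymatically with heating. Cells were cryopreserved before 10x Chromium capture. From each litter 1 male and 1 female were kept, but the labels do not tie mice to dams, so mice treated here as separate may share a dam, and p-values cover only the spread between these mice.

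Brain capillaries and small veins are lined by endothelial cells joined by tight junctions, and together they form most of the surface of the blood-brain barrier. Capillary endothelium is rich in transporters that carry glucose, amino acids, lactate, thyroid hormone and iron between blood and brain, whereas the venous end carries receptors through which leukocytes adhere. Endothelial identity changes gradually from artery to capillary to vein. Lead is a divalent cation that enters cells partly through transporters of essential metals, and brain endothelium has long been studied as a target of high-dose lead.

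The numbers of capillary-venous cells were 187, 116, 222 and 132 in Pb F1, F2, M1 and M2, and 44, 137, 88 and 67 in control F1, F2, M1 and M2. Their summed UMIs ranged from 426711 in control F1 to 1492770 in Pb M1. The median cell held 5327 UMIs (range 1545 to 31312), against 6621 in arterial-type cells and 4356 in tied cells. Its median was 9 UMIs from the capillary-venous sum and 0 from the arterial sum, and 76 cells led by a single UMI. At the endothelial limit, 4 cells lay just inside (0.7% to 0.8%) and 2 just outside (0.6% to 0.7%). At the pericyte limit, 38 lay just inside (0.3% to 0.4%) and 28 just outside (0.4% to 0.5%). Of the 993 cells, 10 were called doublets and 18 carried a barcode found in more than 1 library, and both kinds were kept.

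RNA of other cell types was present in the capillary-venous cells, for most marker lists below its level in the other cells. Oligodendrocyte markers (14 of 14 in the table) made up 0.547% to 0.717% of UMIs in Pb mice and 0.441% to 0.954% in control mice, against 3.49% in the mean of the other, non-endothelial cells. Microglial markers (14 of 14) made up 0.225% to 0.334% and 0.173% to 0.320%, against 1.39%. Choroid plexus and ependymal markers (8 of 8) ranged from 0.00591% to 0.453% in Pb mice and from 0.00656% to 1.59% in control mice, where the highest mouse, control M2, was above the 1.25% mean of the other cells. Pericyte markers not used by the rule (11 of 12, Steap4 at 0) came to 0.0160% to 0.0219% and 0.0143% to 0.0246%. The median cell had 12 UMIs of Mbp and 2 each of C1qa and Ttr, and 0 of P2ry12, Acta2, Mgp and Gkn3. Hemoglobin genes, which mark red blood cells, were found in 615 cells, but 14 cells with over 1% of their UMIs from these genes held 94.7% of the hemoglobin UMIs. The median UMIs per capillary-venous cell were 5017, 5304, 5417 and 4302 in Pb mice and 7210, 5979, 5842 and 5832 in control mice. The groups did not overlap, and the difference (5010 ± 501 against 6216 ± 666, SD, n = 4; exact two-sided permutation test, p = 0.0286, the smallest that 4 against 4 allows) had an adjusted p of 0.214 over the 15 library measures compared.

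All 6 genes that mark this class were higher in capillary-venous than in arterial-type cells of the same mouse, in 8 of 8 mice. Expression is given as CPM, a gene's UMIs summed over a mouse's cells of the class and scaled to 1000000 UMIs of that class. Values are listed in the order F1, F2, M1 and M2. Slc38a5 (X:8271133-8280179), a glutamine transporter, had 189, 114, 241 and 213 CPM in Pb mice and 148, 147, 265 and 189 CPM in control mice, against a mean of 13.1 in arterial-type cells. Car4 (11:84957786-84966044), a carbonic anhydrase anchored on the luminal surface, had 1084, 875, 1294 and 1105 CPM in Pb mice and 1073, 1127, 1323 and 752.5 CPM in control mice, against 94.9. Hmcn1 (1:150562524-150993435), an extracellular matrix protein, had 299 ± 77.4 CPM (SD over 8 mice) against 60.7. These 3 genes chose the cells, so their levels show the rule at work.

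Ctla2a and Net1 were not part of the rule and were also higher in the class. Ctla2a (13:60934155-60936625), a relative of cathepsin propeptides, had 1516, 1593, 1615 and 1658 CPM in Pb mice and 1730, 1442, 1455 and 1519 CPM in control mice, the most even of the 6 markers, against 413 ± 64.4 in arterial-type cells. Net1 (13:3882018-3918220), an exchange factor for the GTPase RhoA, varied more: 290, 596, 244 and 196 CPM in Pb mice and 476, 447, 261 and 432 CPM in control mice, against 106. Each male except control M2 was below each female for Net1. Cldn5 (16:18776847-18778262), the main claudin of the barrier's tight junctions, differed less between the classes, at 4361 ± 734 CPM against 3124 ± 554. In the other cells of the libraries the 6 markers had means of 18.1 (Slc38a5), 21.0 (Hmcn1), 139 (Car4), 176 (Ctla2a), 40.3 (Net1) and 587 CPM (Cldn5). The 2 markers outside the rule, Ctla2a and Net1, were on the side the label gives in each mouse. The markers were chosen with earlier results of these data known, so this is description and no independent support for the label.

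**Figure D1:**
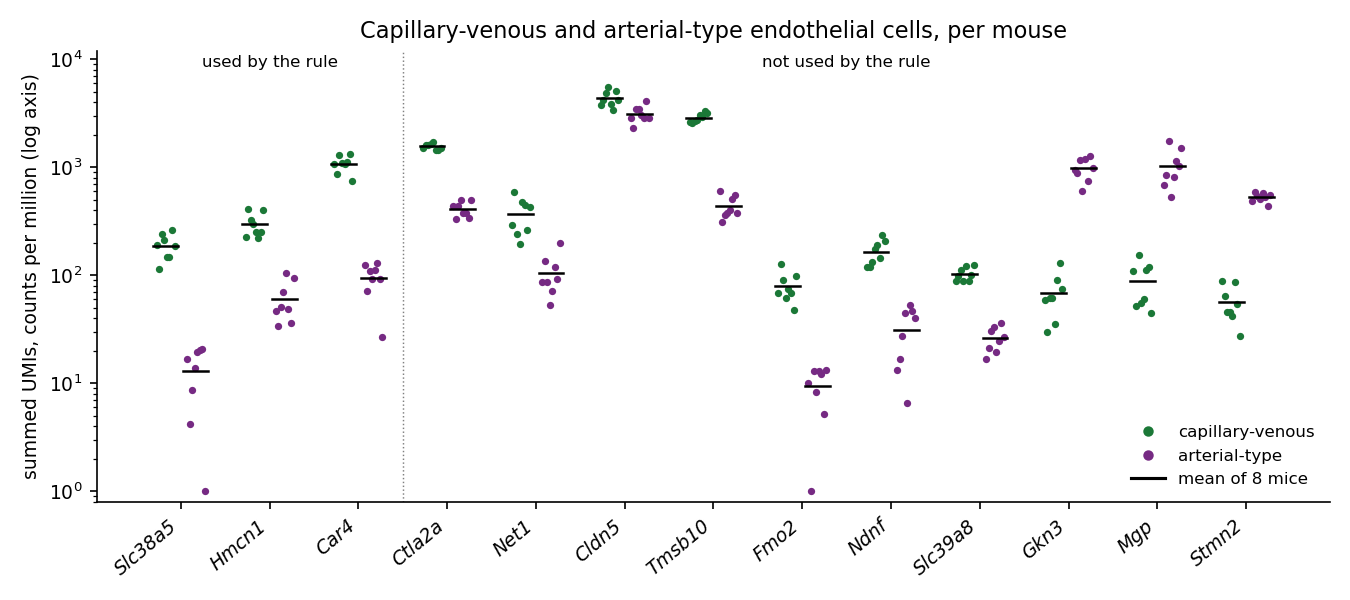
Expression of 13 genes in capillary-venous (green) and arterial-type (purple) cells, on a log axis of CPM. Each dot is 1 of 8 mice, the black line is the mean of the 8 mice, and values under 1 CPM are drawn at 1. Slc38a5, Hmcn1 and Car4, which set the class, and Ctla2a, Net1 and Tmsb10 lie higher in capillary-venous cells. Cldn5 differs little, and Gkn3, Mgp and Stmn2 lie far lower. Cldn5 is drawn among the genes not used by the rule, but it is part of the rule's endothelial sum.

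Outside the rule, thymosin genes had the highest capillary-venous level relative to the arterial type. Tmsb10 (6:72957347-72958748), which encodes an actin-binding peptide, had 2884 ± 281 CPM against 435.5, a ratio of 6.56 after 5 CPM were added to both values, as in all ratios here. Gm9844, at 359 against 48.2 CPM (6.85), is a near copy of Tmsb10, so reads could have been split between them. Next came Fmo2, a flavin monooxygenase (80.2 against 9.43 CPM, ratio 5.91), and Ndnf, a secreted factor (165.5 against 31.1, ratio 4.72). Tiam1, an activator of Rac, had a ratio of 3.78. Slc39a8, an importer of zinc and manganese that also carries cadmium, had 103 against 26.2 CPM, a ratio of 3.46. Nrp2, a receptor for semaphorins and VEGF found on veins, had 52.2 against 13.4 CPM.

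Arterial genes were low in these cells. Gkn3, a marker of brain arteries, had 68.1 CPM against 976, which was 13.4-fold lower. Mgp, an inhibitor of vessel calcification, was 11.2-fold lower at 88.4 against 1039 CPM, and Eln, the elastin of artery walls, 7.31-fold lower at 17.5 against 159. Stmn2, a microtubule regulator best known from neurons, had 57.1 against 529.5 CPM. Of the 25 genes of the arterial list, 23 reached 50 CPM in either class, and 20 of those were lower in 8 of 8 mice, with a median ratio of 0.31. Over all 3685 genes at that level, 300 were higher and 283 lower in 8 of 8 mice, and the median ratio was 1.01.

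Transport genes stood mostly on the capillary-venous side. Of 21 blood-brain barrier transporters with at least 50 CPM, 12 were higher than in arterial-type cells in 8 of 8 mice and 2 were lower, with a median ratio of 1.57. Among all 3685 genes at that level, 300 were higher and 283 lower in 8 of 8 mice. The ratio was 2.57 for Slc16a1, the monocarboxylate transporter that carries lactate and ketone bodies. It was 2.52 for Slc22a8, an organic anion transporter, 2.48 for Tfrc, the transferrin receptor, and 2.07 for Slc40a1, the iron exporter ferroportin. Slc7a5 and Slc3a2, the subunits of the large neutral amino acid transporter, had ratios of 2.29 and 1.70. Those of Slc7a1, for cationic amino acids, and Abcg2, a drug efflux pump, were 1.75 and 1.73. The taurine transporter gene Slc6a6 (0.696) and the zinc exporter gene Slc30a1 (0.725) were the 2 on the arterial side.

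Metallothionein genes also stood higher. Mt1, a metallothionein that binds zinc and other metals, had a ratio of 2.26 over an arterial-type mean of 812 CPM, and Mt2 had 2.82 over 278. Of 13 metal genes at 50 CPM or more, 7 were higher and 2 lower in 8 of 8 mice. Fth1, the most abundant of the metal genes, had a ratio of 0.977 and was higher in 2 of 8 mice. Of 12 genes of the VEGF and angiopoietin pathway, 4 were higher and 1 lower, with Kdr, the main VEGF receptor of endothelium, at a ratio of 2.05. The Wnt receptor gene Fzd4, which is needed to form the barrier, had a ratio of 1.63. Junction genes, a list without Cldn5, differed less: 3 of 11 (Tjp1 1.28, Esam 1.45 and Jam2 1.31) were higher in 8 of 8 mice. Notch genes leaned the other way, with 0 of 8 higher and 5 lower, as did immediate early genes, with 0 of 18 higher and 6 lower. These counts for each list stand beside 300 higher and 283 lower of all 3685 genes at 50 CPM or more.

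Both capillary and venous genes stood higher in the class. All 15 capillary genes reached 50 CPM and 9 were higher than in arterial-type cells in 8 of 8 mice, with a median ratio of 1.75. Among all 3685 genes at that level, 300 were higher in 8 of 8 mice. Of 16 venous genes, 10 reached 50 CPM and 5 were higher in 8 of 8 mice, among them Il1r1, the interleukin-1 receptor (ratio 3.23), and Nr2f2, the transcription factor of venous identity (2.09). Some genes of the venous list were close to absent, whereas Vwf (131 CPM pooled over mice), Icam1 (133) and Vcam1 (57.5) were present. Ackr1, the chemokine carrier of venules, lay between 0 and 2.68 CPM, and Lcn2 between 0 and 12.7. Selp, which tethers leukocytes, had 0 CPM in 7 mice and 16.1 in Pb M1. Plvap, the diaphragm protein of leaky vessels, was seen in Pb F1 (14.1 CPM) and Pb M1 (0.67 CPM) only.

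Within the class, cells with a UMI of both Slc38a5 and Car4 numbered 504 (50.8%), those with Car4 without Slc38a5 436 (43.9%), those with Slc38a5 without Car4 19, and those with Hmcn1 alone 34. The first subset was richer in several venous genes. Pooled over mice, Vwf, the platelet-binding von Willebrand factor, had 170 CPM (124 to 217 over the mice) in Slc38a5 and Car4 cells against 57.4 (27.2 to 92.4) in cells with Car4 alone. Nr2f2 had 81.1 (71.9 to 104) against 36.5 (25.01 to 47.0). Vcam1, an adhesion molecule for leukocytes, had 79.2 (35.5 to 107) against 18.4 (0 to 27.1), and Il1r1 47.3 (32.9 to 68.2) against 10.8 (0 to 17.2). Tmsb10 had 3318 (3071 to 3714) against 2016 (1856 to 2257). The ranges of these 5 genes did not overlap. Not all genes of the venous list separated the subsets. Flt4 had 66.5 against 68.2 CPM, Plvap 1.51 against 6.02, and Pltp 3258 (2039 to 3639) against 3109 (2632 to 3419).

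Most capillary genes had overlapping ranges in the subsets. Mfsd2a, a lipid transporter that keeps vesicle traffic low at the barrier, had 320 CPM (243 to 404) in Slc38a5 and Car4 cells and 369 (308 to 450) in cells with Car4 alone. Ctla2a had 1541 and 1580, and Rgcc, a cell-cycle regulator used as a capillary marker, 499 (229 to 799) and 683 (346 to 1024). Pooled values were higher in Slc38a5 and Car4 cells for Slc16a1 (647, 482 to 782, against 476, 423 to 657), Tfrc (311 against 206), Net1 (399 against 254) and Slc7a1 (598 against 466). Ivns1abp, an actin-binding kelch protein, was the other way round at 166 (155 to 175) against 239 (185 to 285), without overlap. Icam1, a leukocyte adhesion gene listed as venous, had overlapping ranges of 84.0 to 189 and 48.4 to 188 CPM. The genes of the arterial list summed to 4010 CPM (3271 to 4577) in Slc38a5 and Car4 cells. In cells with Car4 alone they summed to 4721 CPM (4058 to 5739), with overlapping ranges. Slc38a5 and Car4 cells were also deeper (median 6333 against 4879 UMIs), and depth sets in part which cells show a UMI of a gene. Their share was 50.3%, 36.2%, 53.2% and 42.4% of the class in Pb mice and 59.1%, 54.7%, 64.8% and 53.7% in control mice. Cells of control mice were also deeper, and the part of depth in the subsets and in these shares was not tested.

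**Figure D2:**
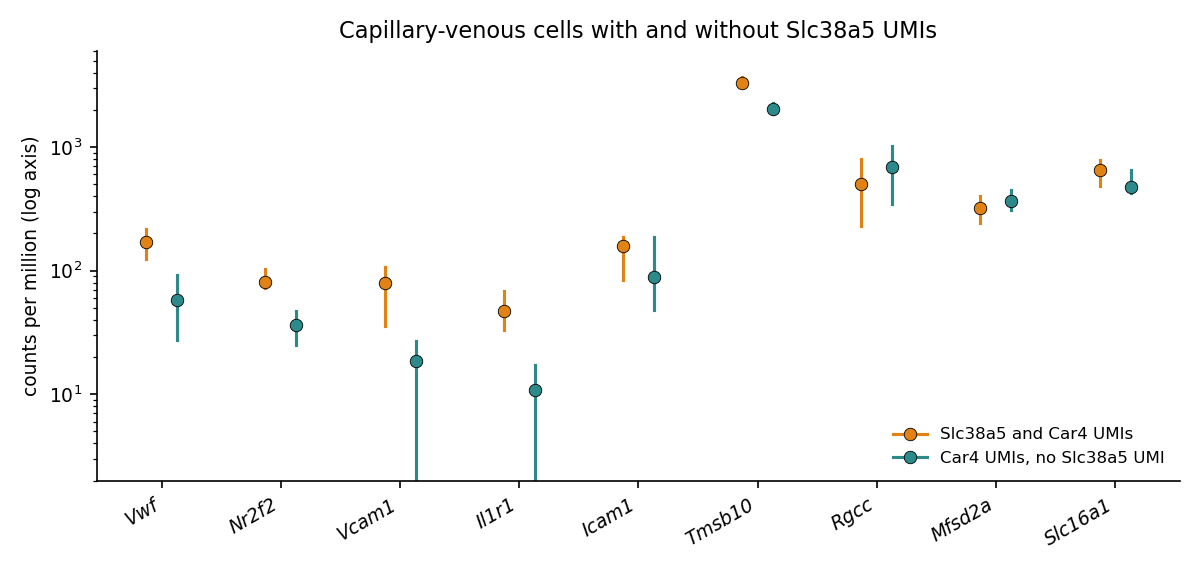
Pooled CPM of venous and capillary genes in capillary-venous cells with UMIs of both Slc38a5 and Car4 and in those with Car4 without Slc38a5, on a log axis. Dots are values pooled over mice and lines run from the lowest to the highest mouse, cut at 2 CPM. Vwf, Nr2f2, Vcam1, Il1r1 and Tmsb10 separate the subsets, and Mfsd2a and Rgcc overlap.

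The balance between capillary-venous and arterial-type cells differed between exposed and control mice by less than the spread between mice. Capillary-venous cells made up 85.4% (95% Wilson interval 80.1 to 89.5), 80.6%, 73.5% and 74.2% of the cells of both classes in Pb mice and 77.2% (64.8 to 86.2), 83.5%, 76.5% and 75.3% in control mice. The intervals cover counting error only. The groups overlapped fully, at 78.4 ± 5.64% and 78.1 ± 3.69% (SD, n = 4), a difference of 0.270 percentage points (exact two-sided permutation test, p = 0.943, adjusted over 3 shares 0.943). As a share of all cells they made up 19.1 ± 4.24% in Pb and 20.7 ± 4.65% in control mice (exact permutation p = 0.714, adjusted 0.943). The difference in the class share had no stable sign under other ways of counting the cells.

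Whether early-life lead exposure altered the transcriptome of capillary-venous cells was asked gene by gene, with UMIs summed per mouse, sex as a covariate and edgeR's quasi-likelihood test with Benjamini-Hochberg adjustment. Of 7971 genes tested, 0 (0%) passed an adjusted p of 0.05, and DESeq2 and limma-voom also called 0. At an unadjusted p under 0.05 edgeR had 328 genes (4.11%), 150 higher (1.88%) and 178 lower (2.23%) in Pb mice. In 95 genes (1.19%) each Pb mouse was above each control mouse, and in 96 (1.2%) each was below. With control F2 left out, 2 genes passed, Gm15013 and Ptgds (smallest adjusted p 0.00672). Without the filter on low counts edgeR called 31 of 15898 genes, 23 of them among the 7971, with Gm15013 (adjusted p = 5.31e-05), Ccl2 (1.55e-04), Ptgds (4.52e-04), Ube2v1 (8.75e-04), Egr1 (0.00571) and Ermn (0.0144) among them. With the filter, the genes below had an adjusted p of 0.9997 and are given as values.

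The smallest p-values belonged to a predicted gene, a ubiquitin-conjugating factor and immediate early genes. Gm15013 had 16.1, 19.7, 6.03 and 3.82 CPM in Pb mice and 49.2, 28.9, 36.9 and 25.5 in control mice, so that each Pb mouse was below each control mouse (log2 difference -1.61, SE 0.33). Ube2v1, a partner of the ubiquitin conjugase Ubc13, had 25.6, 17.1, 12.1 and 20.4 CPM against 53.9, 36.6, 62.5 and 25.5 (-1.24, SE 0.29), with control M2 level with Pb F1. Baiap2l1, which bends membranes with actin, had 24.9, 15.7, 16.7 and 15.3 CPM in Pb and 28.1, 32.3, 42.6 and 43.2 in control mice (-0.96, SE 0.25). In the other direction, Ermn, a cytoskeletal gene of oligodendrocytes, had 64.6, 35.4, 59.6 and 90.4 CPM in Pb and 23.4, 34.0, 44.0 and 25.5 in control mice (0.90, SE 0.24).

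Immediate early genes, which are switched on within minutes of a stimulus, leaned lower in Pb mice. Of 18 tested, 0 had a log2 difference above 0 and 7 were lower at an unadjusted p under 0.05 (Egr1, Fos, Junb, Ier2, Klf4, Zfp36 and Btg2), beside 178 of all genes (2.23%), with a median of -0.20 against -0.00059 over all genes. Fos had 2093, 2551, 2137 and 2014 CPM in Pb mice and 2793, 2830, 3296 and 2967 CPM in control mice (log2 difference -0.44, SE 0.12), without overlap. Egr1 had 430, 622, 429 and 383 CPM against 729, 612, 866 and 642 (-0.63, SE 0.16), where only Pb F2 reached a control mouse. Junb had 2206, 2266, 2020 and 2060 against 2723, 2679, 3295 and 2279 CPM (-0.37, SE 0.12), again without overlap, although Pb F2 and control M2 lay close together. In the arterial-type cells of the same mice Fos stood at 3644 ± 496 CPM in Pb and 4375 ± 349 in control mice.

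Mitochondrially encoded transcripts showed a like pattern. Of the 13, none had a log2 difference above 0, 10 were lower at an unadjusted p under 0.05, beside 2.23% of all genes, and the median was -0.34. mt-Nd1, a subunit of respiratory complex I, had 3271, 2954, 2548 and 3141 CPM in Pb mice and 4624, 3109, 4064 and 3813 CPM in control mice (-0.40), with control F2 among the Pb mice. For mt-Nd5 the values were 379, 450, 332 and 377 against 726, 412, 568 and 527 CPM (-0.55), and here too control F2 was below Pb F2. In the median cell these genes made up 3.36%, 3.44%, 2.73% and 3.32% of UMIs in Pb mice and 4.91%, 3.3%, 3.98% and 4.06% in control mice (exact permutation p = 0.114, adjusted 0.571 over 15 measures). These shares moved in the same direction as the UMIs per cell given above, and the part of depth in the differences was not tested.

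Chaperone genes leaned the opposite way. Of 24 heat shock genes tested, 19 were above 0, with a median log2 difference of 0.15, and 6 were higher at an unadjusted p under 0.05 (Cryab, Hspe1, Hspd1, Hspb1, Hspa1a and Hsp90aa1), beside 150 of all genes (1.88%). Cryab, a small heat shock protein, had 268, 192, 257 and 288 CPM in Pb mice and 152, 205, 176 and 181 in control mice (0.47), overlapping only through Pb F2 and control F2. Hspe1, the mitochondrial co-chaperone, had 321, 252, 314 and 264 against 248, 234, 165 and 181 CPM (0.49, SE 0.14), with the lowest Pb mouse just above the highest control. Of 18 genes of the unfolded protein response, which handles misfolded proteins in the endoplasmic reticulum, 6 had an unadjusted p under 0.05, all higher in Pb mice (Xbp1, Pdia6, Calr, Manf, Creld2 and Sdf2l1, median of the list 0.14), beside the same 1.88%. Xbp1, its transcription factor, had 119, 131, 137 and 144 CPM in Pb mice and 82.0, 103, 105 and 88.4 CPM in control mice (0.46, SE 0.13), without overlap. Pdia6, a disulfide isomerase, had 107, 108, 137 and 124 against 84.4, 91.0, 101 and 72.7 CPM (0.42), also without overlap.

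Smaller groups had a few genes at an unadjusted p under 0.05, beside 1.88% of all genes higher and 2.23% lower in Pb mice. Both cold-inducible RNA-binding genes were lower in Pb mice: Rbm3 had 276, 235, 258 and 214 against 265, 369, 349 and 281 CPM (-0.37), and Cirbp 153, 93.2, 115 and 111 against 129, 222, 156 and 145 (-0.48). Of 11 MHC class I genes, which present peptides to T cells, 3 were higher (B2m 0.29, H2-Q6 1.12 and H2-Q7 0.71), and of 25 interferon-stimulated genes 2 were, Bst2 (0.38) among them. Ccl2, a chemokine that attracts monocytes, had 66.6, 13.1, 20.1 and 12.7 CPM in Pb and 4.69, 16.2, 5.68 and 7.86 in control mice (1.66, SE 0.46), with Pb F1 far above the other mice. Hes1, a Notch target, had 683, 898, 775 and 666 CPM in Pb mice and 1355, 950, 830 and 1051 in control mice (-0.47). None of these passed the adjusted threshold with the filter on low counts.

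Genes known from myelinating oligodendrocytes rather than endothelium were above 0 in 12 of 14 tested, with a median of 0.33. At an unadjusted p under 0.05, 4 were higher and 1 lower, beside 1.88% and 2.23% of all genes. Ptgds had 985, 795, 779 and 961 CPM in Pb and 394, 998.5, 427 and 442 in control mice (0.66), with control F2 the highest of all. Mbp, the most abundant myelin transcript, had 2153, 3562, 1560 and 1907 CPM in Pb and 5228, 1684, 5756 and 1906 in control mice (-0.73). Of 13 microglial genes tested, 12 were above 0 with a median of 0.17, and 0 had an unadjusted p under 0.05 in either direction. The summed shares of both lists overlapped between the groups, as given above, and the part of this RNA in the other differences was not tested.

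**Figure D3:**
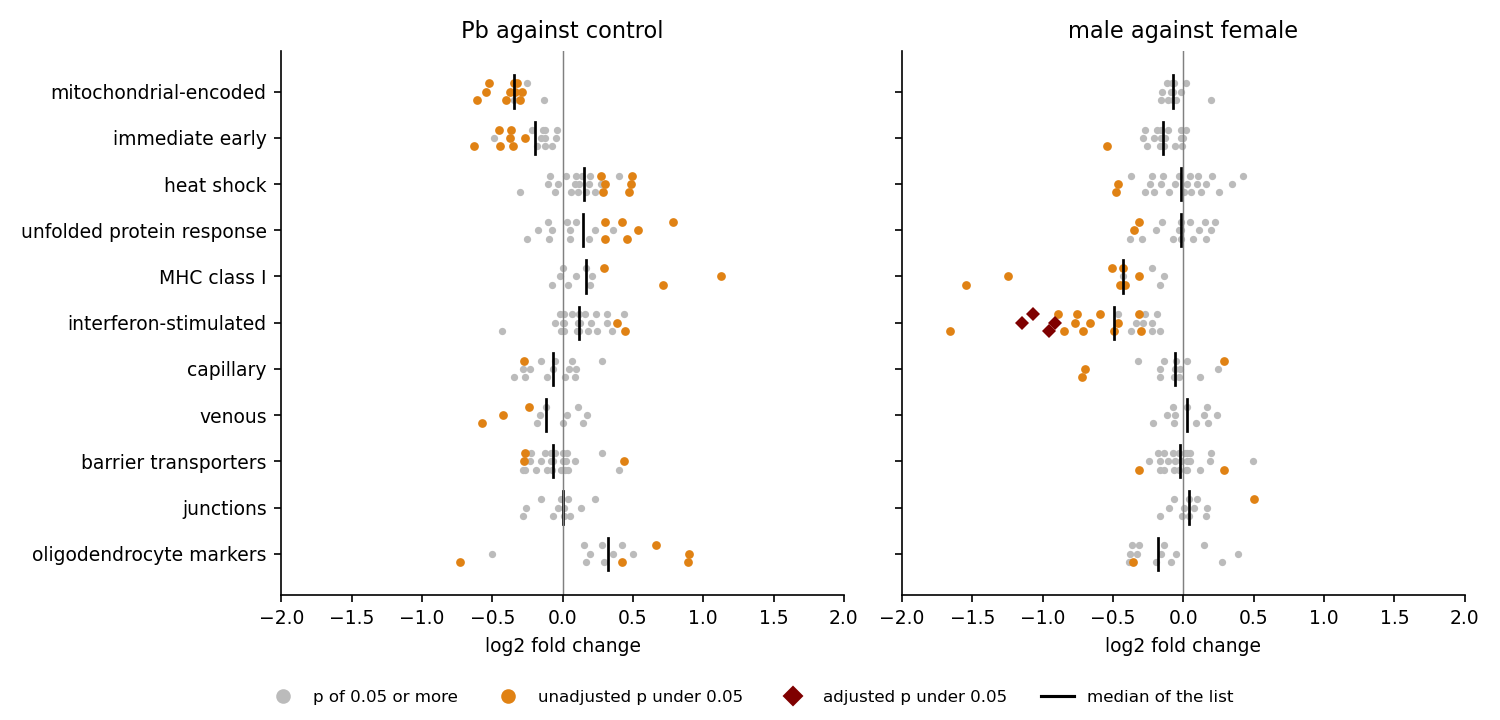
Log2 differences of the members of 11 gene lists in capillary-venous cells, Pb against control on the left and male against female on the right. Grey points have an unadjusted p of 0.05 or more, orange points an unadjusted p under 0.05, dark red diamonds an adjusted p under 0.05, and black lines are list medians. On the left no gene passed the adjusted threshold, mitochondrially encoded and immediate early genes lie at or below 0 and most heat shock genes above 0, and on the right interferon-stimulated and MHC class I genes lie below 0.

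Genes that carry out barrier functions showed little. None of 12 junction genes had an unadjusted p under 0.05, nor did any of 21 Wnt pathway genes (19 of them below 0, median -0.11), 11 genes of the VEGF and angiopoietin pathway, 15 of the TGF-beta and BMP pathway, 17 of basement membrane and integrins, 9 of caveolae and transcytosis or 17 of NRF2 and glutathione. Of 26 barrier transporters, 1 was higher and 2 lower at that threshold, beside 1.88% and 2.23% of all genes. Slc1a1, a glutamate and aspartate carrier, had 122, 142, 125 and 148 CPM in Pb mice and 84.4, 107, 104 and 92.3 in control mice (0.43, SE 0.13), each Pb mouse above each control mouse. Slc16a1 had 467, 505, 620 and 628 against 640, 581, 737 and 699 CPM (-0.27, SE 0.11), with overlap. Of 11 venous genes, 3 were lower in Pb mice (Vwf -0.42, Il1r1 -0.57 and Tmsb10 -0.24), beside the same 2.23% of all genes. Tmsb10 had 2618, 2551, 2713 and 2730 CPM in Pb and 3042, 2910, 3356 and 3151 in control mice, without overlap. Neither of the 2 markers of the class outside the rule, Ctla2a (0.05) and Net1 (-0.35), had an unadjusted p under 0.05.

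Genes tied to the handling of metals were examined because lead binds metallothioneins and inhibits an enzyme of heme synthesis. Mt1 had 1965, 2016, 1147 and 1860 CPM in Pb and 1999, 2433, 1854 and 1450 in control mice (log2 difference -0.16, SE 0.14), and the groups overlapped. Mt2 had 791, 978, 437 and 724 against 1041, 945, 802 and 642 CPM (-0.25, SE 0.15), also overlapping. Alad, the heme synthesis enzyme that lead inhibits, had 63.2, 56.4, 79.0 and 58.6 CPM in Pb and 68.0, 61.2, 78.1 and 90.4 in control mice (-0.17). Slc39a8 had 88.1, 98.4, 113 and 89.1 against 122, 88.5, 101 and 124 CPM (-0.13), and Hmox1, which breaks heme down under oxidative stress, 63.9, 15.7, 38.2 and 53.5 against 25.8, 40.8, 31.2 and 33.4 (0.38). None of these 5 had an unadjusted p under 0.05. Of 16 genes of the metal list, 1 did (Slc30a1, lower), and of 13 heme genes also 1 (Cpox, higher, 0.57). Among all genes, 2.23% were lower and 1.88% higher at that threshold.

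The sexes were compared in the same fit. Of the 7971 genes, 10 (0.125%) passed an adjusted p of 0.05 in edgeR's quasi-likelihood test with exposure as a covariate, 8 lower (0.1%) and 2 higher (0.0251%) in males. At an unadjusted p under 0.05 there were 316 (3.96%), 116 higher (1.46%) and 200 lower (2.51%) in males. The sex-linked genes matched the labels in 8 of 8 mice. Xist, the RNA that silences an X chromosome, had 790, 765, 694 and 708.5 CPM in Pb F1, Pb F2, control F1 and control F2, and 0.670 in Pb M1 and 0 in the other 3 males. Tsix overlaps Xist on the opposite strand, and no source used here says whether counting used strand, so reads of the pair may be mixed. Ddx3y, a Y-linked RNA helicase, had 93.1, 87.9, 97.9 and 86.5 CPM in Pb M1, Pb M2, control M1 and control M2 and 0 in females, and Eif2s3y 28.8, 49.7, 32.6 and 33.4 and 0.

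The other 6 genes are autosomal, and all were higher in females, and 4 of them are interferon-stimulated. Females are listed as Pb F1, Pb F2, control F1 and control F2, and males as Pb M1, Pb M2, control M1 and control M2. Ifit1 (19:34640871-34650009), which binds viral RNA lacking host cap marks, had 137, 210, 129 and 159 CPM in females and 85.1, 70.03, 73.8 and 74.7 in males (158.8 ± 36.4 against 75.9 ± 6.44, SD, n = 4; log2 difference -1.07, SE 0.16, edgeR adjusted p = 0.00782). Ifit3 (19:34583531-34588731), of the same family, had 114, 138, 98.4 and 130 against 77.0, 56.0, 63.9 and 57.0 CPM (-0.91, SE 0.16, edgeR adjusted p = 0.0264). In both genes each female was above each male. A near-identical copy, Ifit3b, could share reads with Ifit3.

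The remaining 2 interferon-stimulated genes were a transcription factor and an antiviral enzyme. Irf7 (7:141262706-141266481), which amplifies interferon production, had 145, 106, 126.5 and 172 CPM in females and 88.4, 47.1, 61.0 and 41.3 in males (-1.15, SE 0.21, edgeR adjusted p = 0.0346). Rsad2 (12:26442746-26456452), which encodes viperin, had 90.1, 115.5, 79.7 and 77.4 against 58.3, 39.5, 44.0 and 41.3 CPM (-0.96, SE 0.18, edgeR adjusted p = 0.0355). Again no male reached a female. Of the other pair, Ctgf (10:24595442-24598683, RefSeq Ccn2), a matricellular growth factor, had 76.0, 78.7, 44.5 and 62.1 CPM in females and 42.2, 29.3, 18.5 and 27.5 in males (-1.16, SE 0.20, edgeR adjusted p = 0.0264). Xdh (17:73883895-73950196), the xanthine oxidoreductase that makes uric acid, had 161, 255, 173 and 169 against 96.5, 117, 63.9 and 106 CPM (-1.002, SE 0.18, edgeR adjusted p = 0.0276).

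These calls rest on 4 mice per sex and vary with the libraries used. With Pb M2 left out, 4 genes passed, all sex-linked, with control F2 left out 6, and with Pb F1 left out 16. DESeq2 called 14, limma-voom 10, and edgeR without the filter on low counts 57. Over 19 alternatives, Ifit1 was lost in 1 (without Pb M2, edgeR adjusted p = 0.0851). Ctgf was lost in 3, Ifit3 in 4, Xdh and Irf7 in 6 each and Rsad2 in 7.

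**Figure D4:**
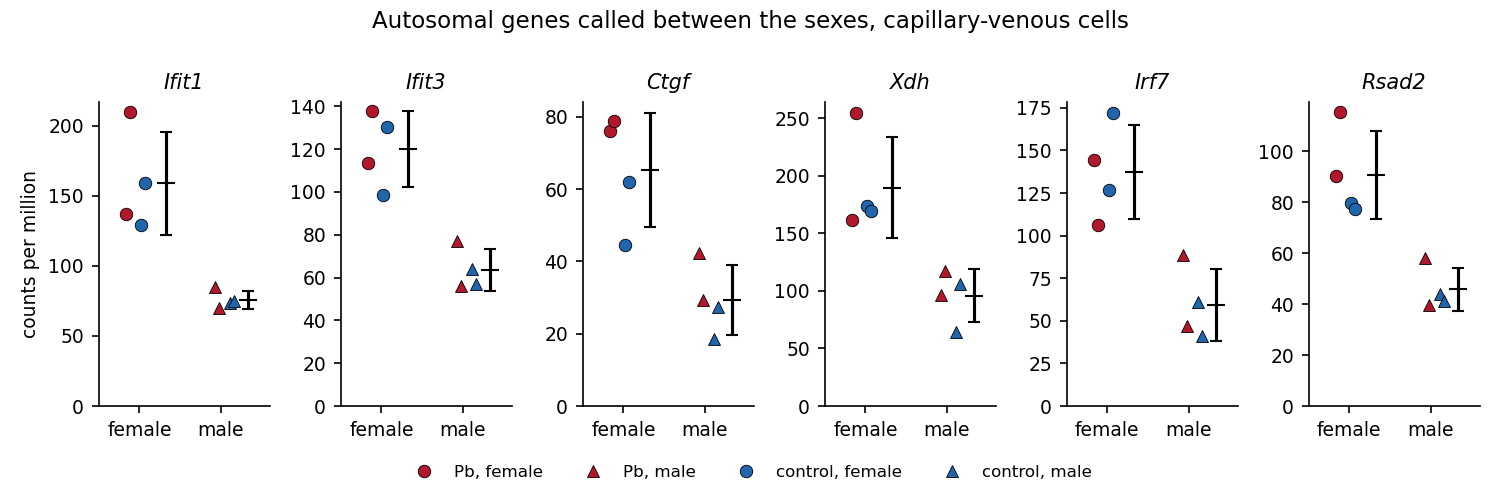
CPM of the 6 autosomal genes called between the sexes in capillary-venous cells. Dots are mice, 4 females and 4 males, with mean and SD. In each of Ifit1, Ifit3, Ctgf, Xdh, Irf7 and Rsad2 the lowest female lies above the highest male.

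Promoters of the interferon-stimulated genes are shown because a family of transcription factors that interferon activates binds repeats of GAAA. The 200 bases before the start of each gene are given 5′ to 3′ on the gene's strand, from RefSeq on GRCm38.p6, for the 3 called genes that had a match to GAAA followed, after any 2 bases, by another GAAA on either strand. Matches are in capitals, and those shown begin and end with TTTC.
Ifit1: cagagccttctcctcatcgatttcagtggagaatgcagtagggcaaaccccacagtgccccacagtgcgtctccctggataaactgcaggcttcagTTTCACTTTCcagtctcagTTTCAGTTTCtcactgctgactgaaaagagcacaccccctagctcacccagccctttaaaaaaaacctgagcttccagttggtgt
Ifit3: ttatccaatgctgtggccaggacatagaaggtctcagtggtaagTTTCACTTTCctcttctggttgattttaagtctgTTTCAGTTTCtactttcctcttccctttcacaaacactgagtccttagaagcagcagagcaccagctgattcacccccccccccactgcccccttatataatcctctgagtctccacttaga
Rsad2: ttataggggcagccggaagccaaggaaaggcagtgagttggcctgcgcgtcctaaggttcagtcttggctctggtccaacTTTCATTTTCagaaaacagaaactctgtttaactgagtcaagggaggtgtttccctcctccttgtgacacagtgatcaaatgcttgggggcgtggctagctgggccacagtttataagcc
They lie at chr19:34640689-34640888 (plus strand), chr19:34583329-34583528 (plus strand) and chr12:26456453-26456652 (minus strand). The matches begin 104 and 85 bases before the RefSeq start of Ifit1, 156 and 122 before that of Ifit3 and 120 before that of Rsad2. The GENCODE positions given above for Ifit1 and Ifit3 have other starts, and the stretch printed for Ifit1 runs past its GENCODE start. The promoter of Irf7 held no match, and Xdh and Ctgf had no entry in the promoter table. Of the 18 interferon-stimulated genes with a promoter entry, 12 held a match in the 300 bases around the start (250 before and 50 after), against 3.44% of all 32851 promoters of that length. A match describes the sequence and is not a measured binding site.

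The interferon-stimulated group as a whole lay lower in males. Of 25 tested, 0 were above 0, the median log2 difference was -0.49, and 16 had an unadjusted p under 0.05, all lower in males, beside 200 of all genes (2.51%). In 13 of the 25 each female was above each male, beside 130 of all genes (1.63%), and in 108 of all genes (1.35%) each female was below each male. Isg15, a ubiquitin-like modifier, had 263, 362, 354 and 269 CPM in females and 228, 143, 145 and 173 in males (-0.85, edgeR adjusted p = 0.0991). Ifi27l2a had 90.8, 56.4, 190 and 96.1 against 50.9, 8.91, 36.9 and 13.8 CPM (-1.66, edgeR adjusted p = 0.199), the largest difference of the interferon-stimulated genes named here. Genes of the group share regulators and are not independent of each other. In the same fit 12 of 13 microglial genes (median -0.15) and 11 of 14 oligodendrocyte genes (median -0.18) were also below 0, and their part in the difference was not tested.

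MHC class I genes, many of which interferon also induces, followed. Of 11 tested, 0 were above 0, 7 were lower at an unadjusted p under 0.05 (2.51% of all genes) and 6 had each female above each male (1.63% of all genes), with a median of -0.43. The smallest adjusted p was 0.199, so none passed. H2-K1, a classical class I heavy chain, had 613, 831, 605 and 611 CPM in females and 516.5, 518, 501 and 422 in males (-0.45, edgeR adjusted p = 0.457). B2m, the light chain shared by all class I molecules, had 2196, 2779, 1973 and 2279 against 2020, 1905, 1604 and 1430 (-0.43, edgeR adjusted p = 0.442), with Pb M1 above control F1. H2-Q6 and H2-Q7 (-1.54 and -1.25) are near copies of each other, so their counts are uncertain one by one.

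A marker of the class outside the rule and a few vessel genes differed by sex at unadjusted p-values without passing the adjusted threshold. Net1 was lower in males (-0.72, edgeR adjusted p = 0.5295). Plat, tissue plasminogen activator, had 465, 526, 396 and 519 CPM in females and 342, 218, 380 and 224 in males (-0.72, edgeR adjusted p = 0.264), without overlap. Rgcc had a difference of -0.70 and Mt1 and Mt2 differences of -0.43 and -0.55. None of 11 venous genes had an unadjusted p under 0.05.

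The exposure difference was next compared between the sexes. In edgeR's fit with an exposure-by-sex term, 0 of 7971 genes (0%) passed the adjusted threshold, DESeq2 and limma-voom also gave 0 while edgeR without the filter on low counts gave 29, and 281 (3.53%) had an unadjusted p under 0.05, 144 above 0 (1.81%) and 137 below (1.72%). The smallest p-values, all with an adjusted p of 0.9997, included Prdx3, a mitochondrial peroxidase. It had 40.4 and 40.7 CPM in Pb females and 56.2 and 69.7 in control females, but 64.3 and 71.3 in Pb males and 41.2 and 27.5 in control males (interaction 1.6, SE 0.37). Atp1b2, a subunit of the sodium pump, had the same crossing: 18.8 and 22.3 against 28.1 and 39.97 CPM in females, and 32.8 and 38.2 against 17.03 and 17.7 in males (1.82, SE 0.46). Chchd10, a mitochondrial protein, had 39.0, 11.8, 8.71 and 8.91 CPM in Pb and 16.4, 15.3, 21.3 and 92.3 in control mice (-3.43, SE 0.89), with Pb F1 and control M2 far above the rest. Rpl36-ps3, a ribosomal pseudogene whose counts may come from its parent, was the last of the 4 (1.47, SE 0.31). With control M1 left out, 1 gene passed (Gm26917).

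Whether the exposure difference itself differed between capillary-venous and arterial-type cells of the same mice was tested with mouse, class and their product with exposure, over 7203 genes. In edgeR's test 6 genes (0.0833%) passed, 4 with a higher (0.0555%) and 2 with a lower (0.0278%) difference in capillary-venous cells, and 300 (4.16%) had an unadjusted p under 0.05, 160 above 0 (2.22%) and 140 below (1.94%). Without control F1, 3 genes passed, and without control F2, 10. The 2 that were lower were Klf4, a transcription factor induced by blood flow, and Hsp90aa1, the stress-inducible chaperone HSP90. In capillary-venous cells Klf4 had 971, 1538, 1174 and 1064 CPM in Pb and 2053, 1420, 1701 and 1291 in control mice, a log2 difference of -0.45 with some overlap. In arterial-type cells it had 1452, 1852, 1695 and 1497 against 1814, 1594, 1374 and 1261 CPM, a difference of 0.10. The difference between these differences was -0.54 (SE 0.11, edgeR adjusted p = 0.0299).

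For Hsp90aa1, both classes leaned the same way but to different degrees. Capillary-venous cells had 1404, 1526, 1596 and 1426 CPM in Pb and 1399, 1014, 1002 and 1395 in control mice (log2 difference 0.30), close but not overlapping. Arterial-type cells had 1723, 1521, 1803 and 2011 CPM in Pb and 1198, 813, 840 and 999 in control mice (0.86, adjusted p = 0.0716), clearly apart. The interaction was -0.55 (SE 0.12, edgeR adjusted p = 0.0304). Both calls were fragile: Klf4 kept an adjusted p under 0.05 in 10 and Hsp90aa1 in 12 of 19 alternatives. Neither was called by DESeq2, after cells with a shared barcode were removed, or without Pb F1, Pb M2, control F1, control M1 or control M2, and over the alternatives the adjusted p ranged from 4.85e-04 to 0.731 for Klf4 and from 7.46e-04 to 0.731 for Hsp90aa1.

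**Figure D5:**
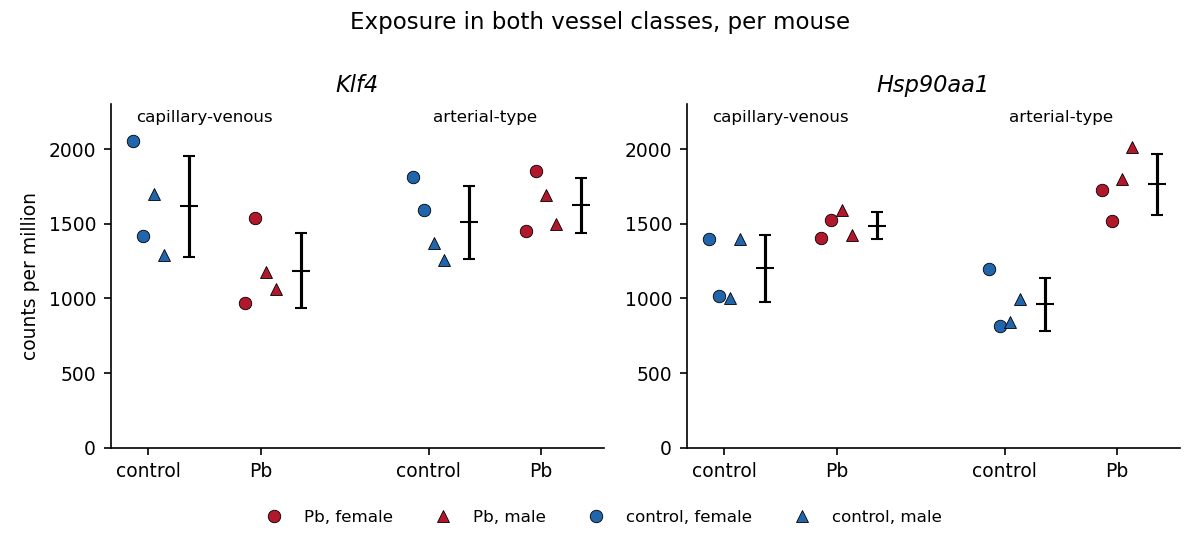
CPM of Klf4 and Hsp90aa1 in capillary-venous and arterial-type cells of Pb and control mice. Dots are 4 mice per group, with mean and SD. Klf4 is lower in Pb than control mice on average in capillary-venous cells and slightly higher in arterial-type cells, and Hsp90aa1 is higher in Pb mice in both, with the wider gap in arterial-type cells.

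Other heat shock and immediate early genes leaned the same way in this comparison without passing. Of 24 heat shock genes, 1 was above 0, and the median interaction was -0.32. At an unadjusted p under 0.05 there were 6 (Hspa1a, Hspa1b, Hsp90aa1, Hsp90ab1, Dnaja1 and Dnajb1), beside 140 of all 7203 genes below 0 (1.94%). Of 18 immediate early genes, 6 had an unadjusted p under 0.05 (Fosb, Jun, Jund, Egr1, Klf4 and Klf6), beside the same 1.94%, with a median of -0.24. In the other direction stood 3 capillary genes (Slc16a1 0.47, Slc7a5 0.33 and Ivns1abp 0.51) and the glutamate carrier Slc1a1 (0.84). Among all genes, 2.22% had an unadjusted p under 0.05 in that direction. Arterial-type cells numbered only 13 to 80 per mouse.

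The 4 genes with a higher difference were hemoglobin genes, most of whose UMIs lay in the few cells described above. Hbb-bt, Hba-a2, Hba-a1 and Hbb-bs had interactions of 6.73, 6.36, 6.24 and 4.22. Hbb-bs, the main adult beta-globin, had 1649, 1277, 6990 and 485 CPM in capillary-venous cells of Pb mice and 2123, 492, 1022 and 128 in those of control mice. In arterial-type cells it had 97.2, 110.5, 198 and 139 in Pb mice and 7347, 323, 238.5 and 141 in control mice, with control F1 far above the rest. After the 14 capillary-venous and 2 arterial-type cells with over 1% hemoglobin UMIs were removed, the values were 17.7, 151, 219.5 and 167 against 387, 331, 212 and 128 in capillary-venous cells, and the interaction was 0.15. Hba-a1 and Hba-a2, which are near-identical copies, then had -0.076 and -0.16.

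The sex difference was compared between the classes in the same way, a test added after the data were seen. In edgeR's fit 4 of 7203 genes (0.0555%) passed, and 323 (4.48%) had an unadjusted p under 0.05, 162 above 0 (2.25%). Those that passed were 3 hemoglobin genes with a higher difference (0.0416%; Hbb-bt 5.46, Hba-a2 5.20 and Hba-a1 5.10) and 1 with a lower (0.0139%), 8430408G22Rik, also known as Depp1, a target of FOXO factors. In capillary-venous cells 8430408G22Rik had 619, 425, 330 and 384 CPM in females and 256, 270, 326.5 and 137.5 in males, and no male reached a female (log2 difference -0.82, adjusted p = 0.2595). In arterial-type cells it had 717.5, 569, 465 and 735.5 in females and 613, 869.5, 809 and 583.5 in males (0.18). The interaction was -0.99 (SE 0.16, edgeR adjusted p = 0.00106) and passed in 19 of 19 alternatives. The hemoglobin genes were not called without Pb M1 or control F1, when 2 genes passed.

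None of the 6 autosomal genes called by sex in capillary-venous cells passed this comparison. Their sex differences in arterial-type cells were -0.24 (Ifit1), -0.71 (Ifit3), -0.23 (Ctgf), -0.60 (Xdh), -0.60 (Irf7) and -0.11 (Rsad2), none called there. Ifit1 in arterial-type cells had 83.8, 170, 177 and 81.7 CPM in females and 97.5, 80.6, 104 and 161 in males, overlapping fully, and its interaction was -0.80 (SE 0.24, edgeR adjusted p = 0.778). The sex difference in these genes was therefore not shown to differ between the classes. Of 26 interferon-stimulated genes tested there, 9 had an unadjusted p under 0.05, all with a lower male-against-female difference in capillary-venous cells, beside 161 of all 7203 genes (2.24%), and the median was -0.27.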

How the data were processed

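The deposited table holds raw UMI counts per gene and cell for all 8 mice, as whole numbers with differing totals show, and each cell had at least 999 genes and 1137 UMIs, so the authors' table had been filtered. The submitters' processing notes name Cell Ranger, Seurat and mm10, without roles or versions. Cells were assigned to mice by column names. Members and gene lists were chosen with earlier results of these data known, so the count or direction of a list is no independent support. Named genes were all past the threshold (10 or fewer), otherwise those with the smallest p (6, or 4 for an interaction), with the most abundant members of each list and those with an unadjusted p under 0.01; genes outside this rule are given as values. Counts were summed per mouse and class and tested in R 4.3.3 with edgeR 4.0.16 (quasi-likelihood, TMM, filterByExpr), tested on simulated data first. The SE of a log2 difference is its size divided by the square root of F. DESeq2 1.42.0, limma 3.58.1, DESeq2 size factors in edgeR, no expression filter, other cell filters, thinning to 2500 UMIs and leaving out each mouse were alternatives. Shares and library measures used exact permutation tests over 70 arrangements in scipy 1.17.1. Doublets were called with Scrublet in scanpy 1.11.5 (rate 0.02; 33 cells, 0.628%). Over 28 pairs of mice chi-square per degree of freedom ranged from 2.08 to 5.74, above sampling noise in each pair. Positions are from GENCODE vM21 on GRCm38. Some genes are not reported here.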

Additional observations from a re-analysis of the deposited data

Results flagged for a closer look

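Single mice stood apart from the other 3 of their group in 17 values, where chance alone gives about 1 in 20 groups of 4; 156 gene groups and 36 groups of measures or shares were examined. Pb F1 stood apart in Baiap2l1 (24.9 CPM), Ccl2 (66.6), Chchd10 (39.0), fibroblast markers (0.00807% of UMIs) and choroid plexus markers (0.453%). Pb F2 stood apart among females in Xdh (255) and H2-K1 (831). Pb M2 had mt-Nd4l at 280.1 and Pb M1 had Xist at 0.670. Control F1 stood apart in median UMIs per cell (7210) and Hbb-bt (344.5), and among females in Mal (394). Control F2 stood apart in Ptgds (998.5), oligodendrocyte precursor markers (0.0217%) and its share of all endothelial cells (77.8%), and among females in Mt1 (2433). Control M2 had Chchd10 at 92.3.

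The exposure difference differed between capillary-venous and arterial-type cells by an interaction test for Klf4 (-0.54), Hsp90aa1 (-0.55), Hbb-bt (6.73), Hbb-bs (4.22), Hba-a1 (6.24) and Hba-a2 (6.36). The sex difference did so for 8430408G22Rik (-0.99), Hbb-bt (5.46), Hba-a1 (5.10) and Hba-a2 (5.20).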

How the results depend on the processing

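The difference in the capillary-venous share changed sign to -1.58 points over all cells, -0.628 with a margin of 2 UMIs, -0.369 with an endothelial minimum of 1%, -0.947 without shared barcodes and -2.68 after thinning, and lay between -2.06 and 2.07 with single mice left out. Without an expression filter, calls numbered 31 for Pb against control, 57 for male against female, 29 for exposure by sex, 12 for exposure by class and 9 for sex by class. With single mice left out they ranged from 0 to 2, 4 to 16, 0 to 1, 3 to 10 and 2 to 6. Exposure by class gave 0 with DESeq2 and 2 without hemoglobin-rich cells or genes. Sex by class gave 1 with DESeq2 and 1 without hemoglobin-rich cells or genes, 7 without doublets, with limma-voom or with the margin of 2 UMIs, and 2 with the endothelial minimum of 1%. With single mice left out, Hmox1 ranged from -0.051 (without Pb F1) to 0.637 and Slc11a2 from -0.508 to 0.042 (without control M2) in Pb against control, and Ifit3 from -0.366 to 0.087 (without Pb M1) in sex by class. Without hemoglobin-rich cells Hba-a2 and Hba-a1 turned to -0.16 and -0.076 in exposure by class and Hba-a2 to -0.036 in sex by class. The cause of the other changes was not tested. Mice with the same label did not deviate together (correlations -0.167, -0.211, 0.0249 and -0.056 over 8223 genes); with the replicate block, Pb against control gave 0 calls (267 at an unadjusted p under 0.05) and the share difference of 0.270 had an exact p of 1. Few cells in control F1 (44) and few arterial-type cells limit the depth.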
